A study of Arabidopsis thaliana with 10 samples.

Results

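Entry into mitosis was examined in a synchronised Arabidopsis thaliana suspension culture by setting the samples taken 10 h and 12 h after release from an S phase block against those taken at 6 h and 8 h. These 4 samples, chosen by the sampling time in their titles, belong to a course of 10, with 1 array for each time of 0, 2, 4, 6, 8, 10, 12, 14, 16 and 19 h. MM2d is a cell suspension line, kept here in the dark, and early stationary cells, 7 days after subculture, were moved to fresh MS salts medium with sucrose, the auxin NAA, kinetin and aphidicolin at 4.16 µg/ml for 24 h. Aphidicolin inhibits replicative DNA polymerases. The drug was washed out, and all 4 samples carry the block, the wash and growth at 27 °C in fresh medium without the drug, so they differ by labelled time only. No genotype other than the line and no untreated culture was labelled. The labels give 1 replicate, and no time was repeated.

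In plant cells, the passage from G2 phase into mitosis is accompanied by a wave of transcripts for mitotic kinases, spindle and chromosome proteins and the vesicle and motor proteins that build the new cell wall in the phragmoplast. Many of these genes are controlled by MYB3R transcription factors, while core histone transcripts are known to accumulate during DNA replication. Ubiquitin-conjugating enzymes of the UBC19 and UBC20 kind work with the anaphase-promoting complex, the ubiquitin ligase that ends mitosis by marking proteins for destruction.

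The values were MAS5 signals, an intensity per probe set, where a probe set is the group of array probes for 1 transcript. Signals under 12 were set to 12, called the floor, and log2 was taken. Of 22746 probe sets, 13647 had a mean log2 signal over all 10 arrays above the 40th percentile (a signal of 25.3) and were tested. That mean includes the 10 h and 12 h arrays, so a probe set low at other times could pass through its later values. Some genes named below, such as NET3A, AT1G49870 and PTL, would fall under this limit on the other arrays alone. Their differences follow in part from that choice. A probe set was called apart if both later values lay above, or both below, the 2 earlier values, and set apart if the means also differed by at least 1 log2 unit, or 2-fold. The 6 h and 8 h arrays correlated at 0.970 over all probe sets, the 10 h and 12 h arrays at 0.981 (Pearson's r), and 8 h with 10 h at 0.982, so the 8 h array was as near to 10 h as the later arrays were to each other.

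The later samples had far more transcripts set apart upwards than downwards. Of the 13647 tested probe sets, 230 were set apart higher at 10-12 h (1.69%) and 85 set apart lower (0.623%). Among the 230, 22 had a mean difference of at least 3 log2 units and 65 of at least 2, whereas among the 85 none reached 3 and 5 reached 2. At any size, 2679 probe sets were apart higher (19.6%) and 2718 apart lower (19.9%), and the median difference over all tested probe sets was 0.0008, so the excess upwards lay in the large differences. Of the 230, 132 named 1 gene, 3 several genes and 95 had no gene listed in the annotation used. Of the 85, these numbers were 31, 7 and 47.

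The limma test, which took its spread from the differences within 3 pairs of neighbouring times (6 and 8 h, 10 and 12 h, 14 and 16 h), called 95 probe sets higher (0.696%) and 23 lower (0.169%), 118 in all (0.865%), at an adjusted p under 0.05, and 1581 (11.6%) were at an unadjusted p under 0.05. Of the 95, 84 were also set apart higher, and of the 23, 12 were also set apart lower. Times within a pair are not replicates, and their p-values reflect only how far these neighbouring samples differ, which may be technical. The count of calls depended on single arrays: 89 higher and 9 lower without 6 h, 461 and 165 without 8 h, 33 and 25 without 10 h, 3 and 0 without 12 h (limma, 863 probe sets at an unadjusted p under 0.05), 47 and 3 without 14 h, and 49 and 3 without 16 h. The counts set apart were 209 and 64 without 6 h, 462 and 193 without 8 h, 297 and 169 without 10 h, and 235 and 110 without 12 h. In each of these 4 settings more were set apart higher than lower.

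**Figure D1:**
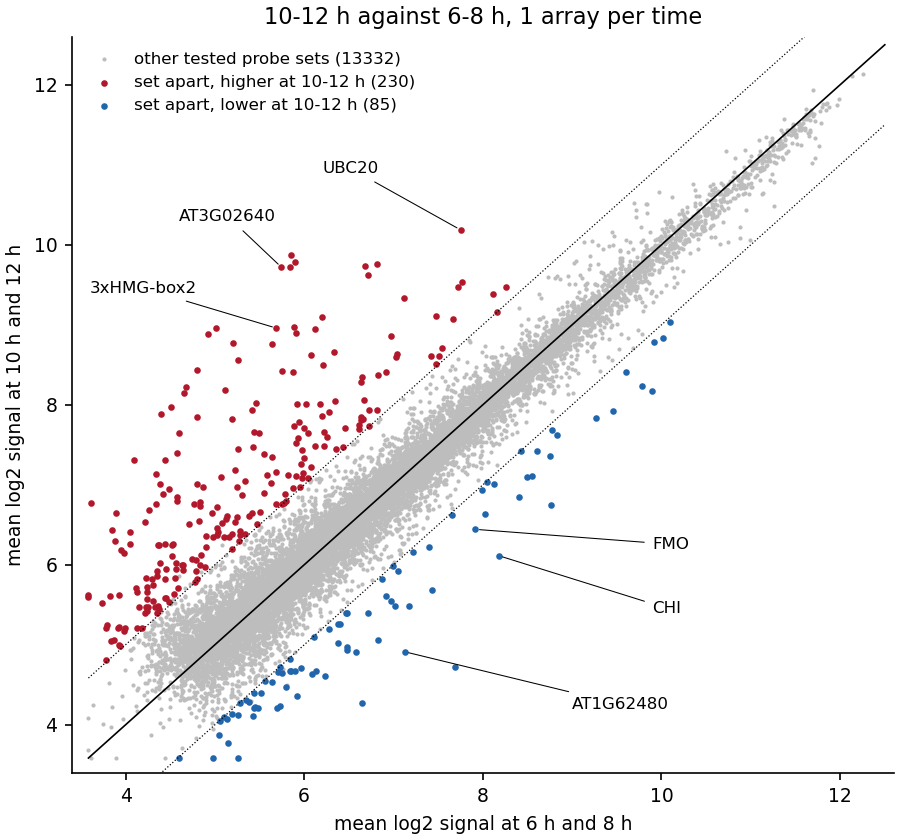
Mean log2 MAS5 signal of each of 13647 tested probe sets at 6 h and 8 h (x axis) against that at 10 h and 12 h (y axis), with the line of equality solid and differences of 1 log2 unit dotted. The 230 probe sets set apart higher (red) reach farther from the line than the 85 set apart lower (blue), up to 4.03 log2 units against 2.97.

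The largest steps among genes with an identity were found at loci that carry only a locus code in the annotation used. AT3G02640 had signals of 34.6 at 6 h, 82.9 at 8 h, 807 at 10 h and 884 at 12 h, a difference of 3.98 log2 units (SE 0.37, adjusted p = 0.0049), or 15.8-fold. AT3G42725 had 19.4 at 6 h, 53.5 at 8 h, 465 at 10 h and 537 at 12 h, a difference of 3.96 log2 units (SE 0.41, adjusted p = 0.00591). AT5G16250 had 34.7 at 6 h, 102 at 8 h, 792 at 10 h and 974 at 12 h, a difference of 3.88 log2 units (SE 0.43, adjusted p = 0.00706). In these 3 the lower of the later signals was more than 7 times the higher of the earlier ones.

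AT5G38300, with 32.9 at 6 h, 44.7 at 8 h, 329.6 at 10 h and 431 at 12 h, had the smallest adjusted p of all tested probe sets, 0.000722 in limma, for a difference of 3.30 (SE 0.19). It was called in 14 of 16 alternatives (adjusted p 5.84e-05 to 0.181). AT5G48310 rose by 2.99 log2 units (adjusted p = 0.00526). AT1G49870, AT4G02800 and AT3G02120 were under the floor at 6 h and stood at 124, 228 and 171 at 12 h, rises of at least 3.17, 3.49 and 3.22 (adjusted p = 0.00451, 0.0145 and 0.00641). All 8 of these loci had lower signals at each of 14, 16 and 19 h than at 10 h and 12 h. AT1G63100 differed in having no step between 6 h and 8 h, with 15.2 at 6 h, 15.7 at 8 h, 58.5 at 10 h and 89.9 at 12 h, a rise of 2.23 (SE 0.39, adjusted p = 0.0419), and it was at 24.0 at 19 h. It was called in 5 of 15 alternatives (adjusted p 0.031 to 0.456). The other 7 loci were called in 10 to 12 alternatives of 15 or 16, and none of them without the 12 h array.

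Among genes with a symbol, the widest gap belonged to UBC20, the mitotic ubiquitin-conjugating enzyme. Its signal was 149.9 at 6 h, 309.6 at 8 h, 1131 at 10 h and 1199.7 at 12 h, a rise of 2.44 log2 units or 5.41-fold (SE 0.31, limma adjusted p = 0.0128), called in 9 of 16 alternatives (adjusted p 0.000206 to 0.415). Its close relative UBC19 had 176 at 6 h, 229.5 at 8 h, 367 at 10 h and 349 at 12 h, a difference of 0.83 log2 units (SE 0.16, adjusted p = 0.0611), so its groups did not overlap but the call was missed.

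Most tested mitotic kinase and spindle checkpoint genes had higher signals at 10-12 h, although 1 passed the test. The list of mitotic kinases, checkpoint and protein degradation genes named 16 genes, of which 8 were tested. This and the other gene lists were chosen with earlier results of these data known. The shares over all set beside them are therefore a description and no independent check. All 8 differences were positive, 7 were apart higher (19.6% over all) and 4 set apart higher (1.69% over all). The median difference was 1.10, and 0.0008 over all. Without the 6 h array, where fewer values need to lie apart, the median was 0.69 and 1 member was apart lower. In limma 1 of the 8, UBC20, was called higher (0.696% over all).

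AUR1 and AUR2, Aurora kinases of the spindle and the forming cell plate, had 128 at 6 h, 322 at 8 h, 551 at 10 h and 529 at 12 h, and 33.7 at 6 h, 54.4 at 8 h, 102 at 10 h and 99.4 at 12 h. Their differences were 1.41 (SE 0.35, adjusted p = 0.131) and 1.23 (SE 0.26, adjusted p = 0.0852). AUR3, the Aurora kinase of centromeres, had 117 at 6 h, 169 at 8 h, 212 at 10 h and 176 at 12 h, a difference of only 0.46 (SE 0.23, adjusted p = 0.504). Its 12 h value lay barely above its 8 h value, and by 14 h it stood at 114, under its 6 h value, while AUR1 at 14 h was still at 387 and AUR2 at 77.7.

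BUBR1 and BUB3.1 are proteins of the spindle checkpoint, which delays the separation of chromosomes until all are attached. BUBR1 was under the floor at 6 h, then 56.8 at 8 h, 99.5 at 10 h and 83.2 at 12 h, a difference of at least 1.80 (SE 0.58, adjusted p = 0.265). BUB3.1 had 78.7 at 6 h, 113 at 8 h, 188 at 10 h and 178 at 12 h, a difference of 0.96 log2 units (SE 0.22, adjusted p = 0.108). BUB3.2, named as a second BUB3 gene, overlapped between the groups with 88.6 at 6 h, 134 at 8 h, 133 at 10 h and 107 at 12 h.

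Chromosome proteins were split. The HMG-box proteins of mitotic chromosomes were set apart higher: 3xHMG-box2 had 16.1 at 6 h, 165 at 8 h, 515 at 10 h and 481 at 12 h, a difference of 3.27 log2 units (SE 0.83, adjusted p = 0.142), and 3xHMG-box1 had 28.9 at 6 h, 49.7 at 8 h, 117 at 10 h and 80.9 at 12 h, a difference of 1.36 log2 units (SE 0.32, adjusted p = 0.118). The signal of 3xHMG-box2 at 8 h was already far from that at 6 h, so its pair of earlier times was wide. TOPII, topoisomerase II, which untangles sister chromatids, had 83.4 at 6 h, 383 at 8 h, 747 at 10 h and 410.4 at 12 h, a difference of 1.63 log2 units (SE 0.58, adjusted p = 0.321), and its 12 h value exceeded its 8 h value by little.

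The other 3 tested members of the chromosome list were not set apart. ATSMC2, a condensin subunit, had 157 at 6 h, 127 at 8 h, 141 at 10 h and 117 at 12 h, and HTR12, the centromeric histone H3, had 63.8 at 6 h, 56.6 at 8 h, 62.5 at 10 h and 40.4 at 12 h, both with overlapping groups. AT3G57060, a list member known in the annotation used by its locus code, was apart lower with a difference of -0.31. Of 6 tested members, 3 were apart higher (19.6% over all) and 1 apart lower (19.9% over all), with a median of 0.61. The median was 0.27 without the 6 h array. Without the 8 h or the 10 h array, where fewer values need to lie apart, 3 members were apart lower.

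For the spindle and phragmoplast, 3 of 30 listed genes had a tested probe set, and 2 of the 3 were set apart higher (1.69% over all). The median of the 3 was 1.24, and 0.64 without the 6 h array. KINESIN-12B, a phragmoplast motor, had 22.7 at 6 h, 52.2 at 8 h, 96.4 at 10 h and 68.3 at 12 h, a difference of 1.24 log2 units (SE 0.38, adjusted p = 0.227). AT4G14330, a list member with a locus code only, had 20.4 at 6 h, 39.3 at 8 h, 101 at 10 h and 87.4 at 12 h, a difference of 1.73 log2 units (SE 0.34, adjusted p = 0.0611). KEU, which regulates membrane fusion at the cell plate, overlapped, with 89.6 at 6 h, 102 at 8 h, 99.3 at 10 h and 91.3 at 12 h.

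Over the 4 mitotic lists together, 17 of 84 listed genes were tested, 12 were apart higher (19.6% over all), 9 of these set apart (1.69% over all), and 1 was called higher in limma (0.696% over all). Of the 17, 11 had an unadjusted p under 0.05 (11.6% over all). The median difference was 1.23 against 0.0008 over all tested probe sets. Since the lists were chosen with earlier results of these data known, these contrasts are a description only. It was 0.64 without the 6 h array. With each array centred on its median, 10 were apart higher. The list of mitotic cyclins and B-type CDKs matched no probe set by locus and was not analysed here. The annotation used listed no gene for 8730 of the 22746 probe sets. Whether any of those measure these genes was not tested.

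**Figure D2:**
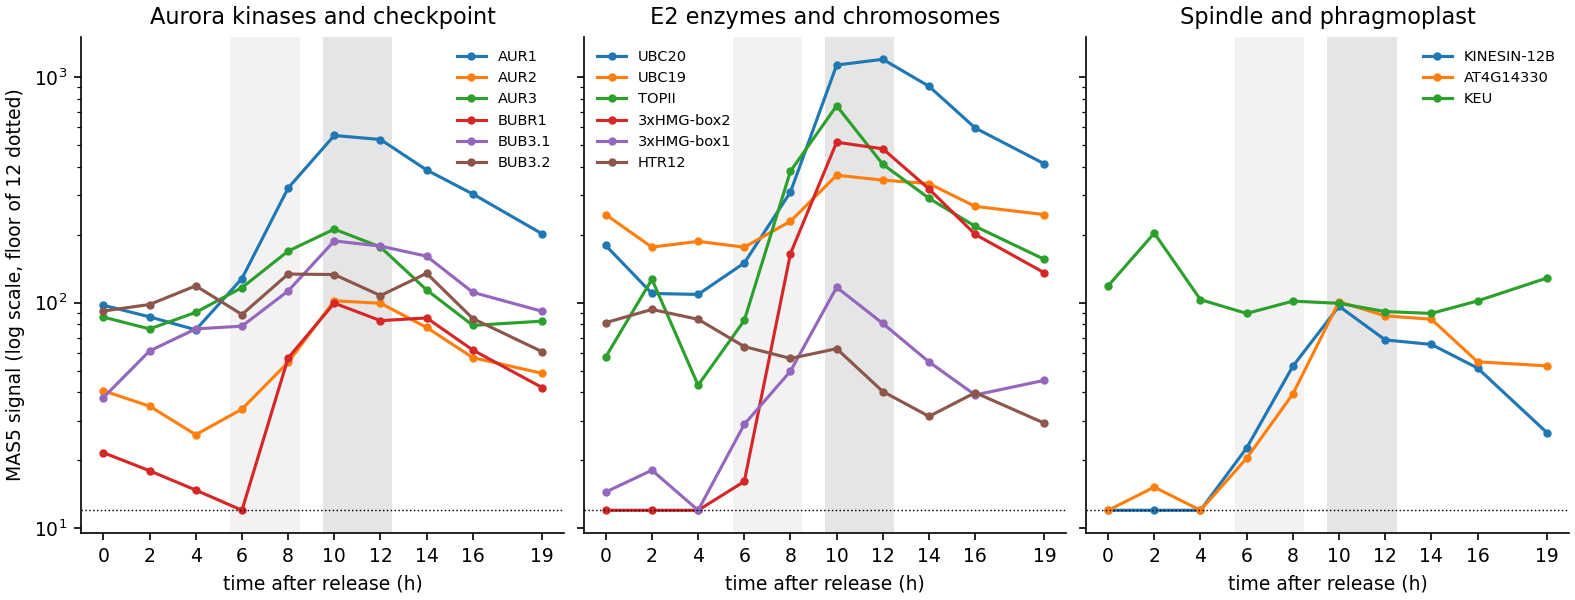
MAS5 signal on a log axis against time after release for 15 members of the mitotic lists, 1 array per time, with 6-8 h and 10-12 h shaded and the floor dotted. Of the 17 tested members, 12 were apart higher at 10-12 h, whereas KEU, BUB3.2 and HTR12 overlapped between the groups. Not drawn are AT3G57060, which was apart lower (-0.31), and ATSMC2, which overlapped (-0.14).

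Core histone transcripts of H2B, H3 and H4 were lower at 10-12 h in every probe set tested. The list named 27 genes and had 15 tested probe sets. Of these, 5 were for H2B genes, 5 annotated to the same 5 histone H3 genes and 5 annotated to the same 8 histone H4 genes. The listed H2A genes matched no probe set and were not analysed here. The H3 probe sets differed widely in level, from 109 to 3092 at 6 h. Which copies each shared probe set measures was not tested. All 15 were apart lower (19.9% over all). The median difference was -0.64 log2 units, a 1.56-fold lower signal. All 15 were also apart lower with quantile normalization (median -0.65) and with median centring (median -0.68). Over 10 other settings, these included, the medians were -0.45 to -0.79. Leaving out 1 array, or changing the floor, pseudocount or filter, could not undo a probe set being apart here. The counts under those settings therefore add no check. Most differences were under 1 log2 unit: 2 of 15 were set apart lower (0.623% over all) and 1 was called lower in limma (0.169% over all).

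The called one was an H3 probe set with 443 at 6 h, 465 at 8 h, 236 at 10 h and 166 at 12 h, a difference of -1.20 log2 units (SE 0.17, adjusted p = 0.0184). It was called in 9 of 16 alternatives (adjusted p 0.0164 to 0.809). Another H3 probe set had 1430.0 at 6 h, 836 at 8 h, 612 at 10 h and 453 at 12 h, and an H4 probe set had 1786 at 6 h, 1992 at 8 h, 1345 at 10 h and 881 at 12 h, differences of -1.05 and -0.79. HTB2, a histone H2B, had 687 at 6 h, 671 at 8 h, 457 at 10 h and 330.5 at 12 h, a difference of -0.80 log2 units (SE 0.19, adjusted p = 0.119). HTB11 had 251 at 6 h, 236 at 8 h, 184 at 10 h and 124 at 12 h, and HTB1 had 347 at 6 h, 254 at 8 h, 201 at 10 h and 181 at 12 h. AT2G28720 had the smallest difference, -0.16, with 142 at 6 h, 125 at 8 h, 117 at 10 h and 120.4 at 12 h.

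Most histone signals were lower still after 12 h. At 14 h, 12 of 15 probe sets were below both later values, made up of all 5 of H3, all 5 of H4 and 2 of 5 of H2B. At 19 h 7 of 15 were. All but 1 were highest at 2 h. HON4, a protein with a linker histone domain, was also apart lower, with 274 at 6 h, 276 at 8 h, 208 at 10 h and 191 at 12 h, a difference of -0.47 log2 units (SE 0.12, adjusted p = 0.131).

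**Figure D3:**
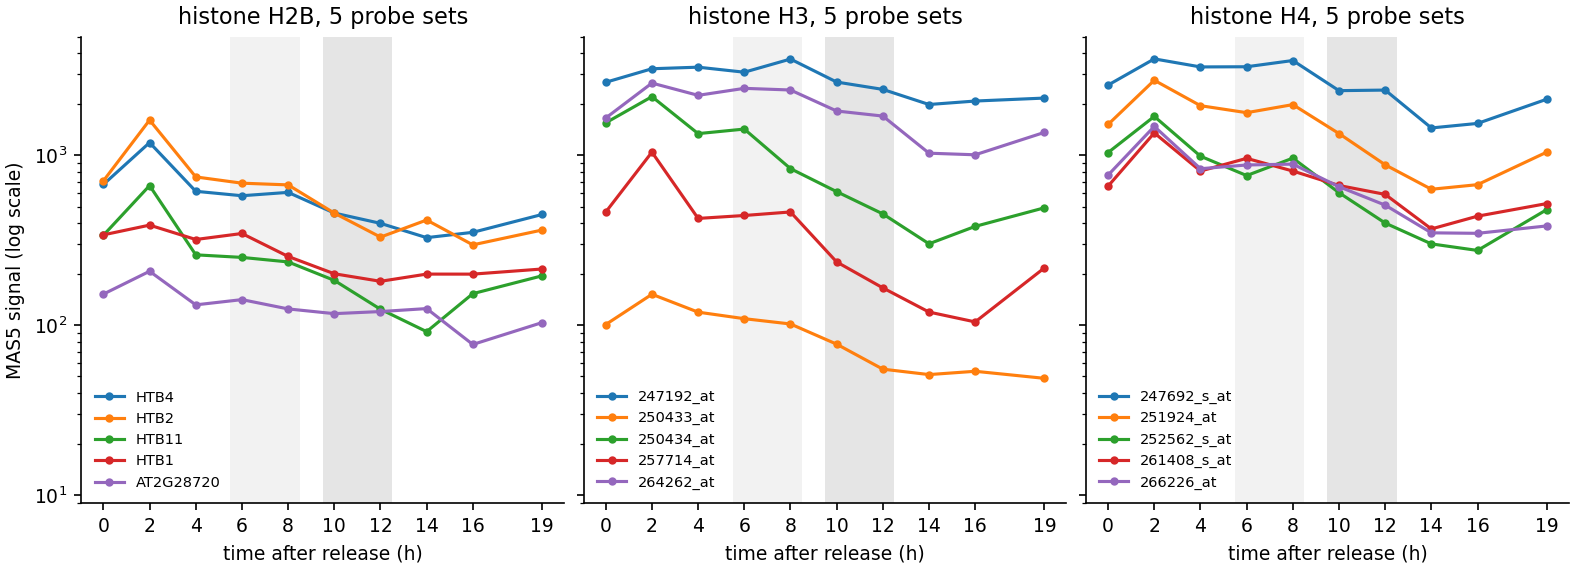
MAS5 signal on a log axis against time after release for 15 core histone probe sets, with the H2B genes named and the shared H3 and H4 probe sets given by their array ID, 1 array per time. All 15 were lower at 10 h and 12 h (dark shading) than at 6 h and 8 h (light shading), with a median difference of -0.64 log2 units.

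Of 6 tested members of the DNA replication and S phase list, 0 were apart higher (19.6% over all), 1 was apart lower (19.9% over all; AT5G26680, -0.26), and 0 were called in limma or had an unadjusted p under 0.05 (11.6% over all). Without the 8 h array 1 was apart higher and 4 apart lower, without 10 h 0 and 3, without 12 h 2 and 3, and with median centring 0 and 3. With 1 array left out fewer values need to lie apart, so those counts cannot be set against the shares over all given here. FBL17, which marks CDK inhibitors for destruction, had 234 at 6 h, 239.9 at 8 h, 257 at 10 h and 226 at 12 h. PRL, a subunit of the MCM helicase, had 529 at 6 h, 474 at 8 h, 505 at 10 h and 429.9 at 12 h, and ICU2, the catalytic subunit of DNA polymerase alpha, had 200.1 at 6 h, 181 at 8 h, 172 at 10 h and 182 at 12 h. Over these 6 the median difference was -0.08, and the list named 34 genes, so most were not analysed here.

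Tubulins are the subunits of microtubules. Of 8 tested probe sets, 2 were apart higher (19.6% over all) and 1 apart lower (19.9% over all), shares near those over all, and 0 were called in limma (1 at an unadjusted p under 0.05, 11.6% over all). TUA6 had 1422 at 6 h, 1996 at 8 h, 2125 at 10 h and 2492 at 12 h, a difference of 0.45 log2 units (SE 0.17, adjusted p = 0.335), and TUB7 had 575 at 6 h, 645 at 8 h, 770.0 at 10 h and 691 at 12 h. A probe set shared by AT5G19780 and AT5G19770 was apart lower, with a difference of -0.14.

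Genes outside the mitotic lists were also higher. NET3A, of a family of actin-binding proteins, was under the floor at 6 h, 22.9 at 8 h, 71.8 at 10 h and 81.3 at 12 h, a rise of at least 2.21 log2 units (SE 0.38, limma adjusted p = 0.0397), called in 4 of 15 alternatives (adjusted p 0.00503 to 0.432). SKU5, a GPI-anchored protein of directional growth, rose from 159 and 210.0 to 375 and 410.5 (difference 1.10, adjusted p = 0.0148), and it stood at 480.5 at 19 h, above its 10 h and 12 h values. RALFL22, a RALF-like peptide, rose by 1.34 (adjusted p = 0.0228), with 61.4 at 6 h, 94.9 at 8 h, 195 at 10 h and 193 at 12 h.

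WRKY22, a transcription factor of defence, had 38.3 at 6 h, 38.7 at 8 h, 78.9 at 10 h and 77.9 at 12 h, a rise of 1.03 (adjusted p = 0.0387), yet it was higher still at 14 h and 16 h, with 97.8 and 106, and highest at 2 h with 174. Hsp70-2, a chaperone, had 606 at 6 h, 592 at 8 h, 995 at 10 h and 1131 at 12 h, a rise of 0.82 (adjusted p = 0.0136). Its level was not particular to 10-12 h, with 1132 at 2 h and 949 at 4 h. At 14, 16 and 19 h it stood at 1008, 1068 and 1004. These calls held in part of the alternatives: SKU5 in 10 of 16 alternatives (adjusted p 0.000924 to 1), Hsp70-2 in 11 of 16 alternatives (adjusted p 0.0102 to 0.391), RALFL22 in 6 of 16 alternatives (adjusted p 0.000721 to 0.42) and WRKY22 in 4 of 16 alternatives (adjusted p 0.0242 to 1).

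Others were set apart without passing the test. ATMPK13, a MAP kinase, had 39.5 at 6 h, 39.3 at 8 h, 101 at 10 h and 137 at 12 h, a difference of 1.58 log2 units (SE 0.32, adjusted p = 0.0721). ATLP-1, a thaumatin-like protein, had 48.5 at 6 h, 74.4 at 8 h, 142 at 10 h and 239 at 12 h, a difference of 1.62 log2 units (SE 0.30, adjusted p = 0.0551). BGLU46, a beta glucosidase, had 31.5 at 6 h, 24.2 at 8 h, 55.0 at 10 h and 66.9 at 12 h. Its signals were higher at 0 h and 2 h (108 and 152) and at 14 h and 16 h (97.6 and 110). PTL, a trihelix transcription factor, was under the floor at 6 h, then 29.9 at 8 h, 49.9 at 10 h and 51.1 at 12 h. It had already stood at 37.0 at 4 h. GTR2, a glucosinolate transporter, had 40.7 at 6 h, 64.5 at 8 h, 107 at 10 h and 110.4 at 12 h, against 370.4 at 2 h.

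Both tested expansins, which loosen the cell wall, were apart higher. EXPA15 had 69.6 at 6 h, 73.8 at 8 h, 112 at 10 h and 166 at 12 h, a difference of 0.93 log2 units (SE 0.21, adjusted p = 0.0996), and stood at 242 at 19 h. EXPB3 had 140.2 at 6 h, 114 at 8 h, 153 at 10 h and 243 at 12 h and 398 at 19 h. XTH20, a xyloglucan-modifying enzyme, overlapped between the groups, with 61.5 at 10 h and 132 at 14 h. Of 3 tested members of the wall list, 2 were apart higher (19.6% over all) and 0 were called in limma (2 at an unadjusted p under 0.05, 11.6% over all). Their median was 0.61, and 0.28 without the 12 h array and 0.94 without 10 h.

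Fewer named genes were lower at 10-12 h. AT1G62480 fell most among the called genes, with 156 at 6 h, 125 at 8 h, 38.5 at 10 h and 23.6 at 12 h, a difference of -2.21 log2 units (SE 0.31, adjusted p = 0.0155), and it went on down to 13.1 at 14 h and under the floor at 19 h. FMO, a flavin monooxygenase, had 300.0 at 6 h, 195 at 8 h, 93.4 at 10 h and 81.1 at 12 h, a difference of -1.47 log2 units (SE 0.21, adjusted p = 0.0158), and stayed between 80.2 and 88.3 from 14 h on. TET5, a tetraspanin, had 135 at 6 h, 108 at 8 h, 53.2 at 10 h and 44.5 at 12 h, a difference of -1.31 log2 units (SE 0.20, adjusted p = 0.0232). AT1G25275 fell from 754 and 654 to 299.7 and 197 (difference -1.53, adjusted p = 0.0128), and AT5G01080 from 115 and 96.2 to 45.8 and 38.9 (adjusted p = 0.0441). These were called in part of the alternatives, AT1G62480 in 10 of 15 alternatives (adjusted p 0.0117 to 0.379), AT1G25275 in 11 of 16 alternatives (adjusted p 0.0067 to 0.728), FMO in 8 of 16 alternatives (adjusted p 0.000863 to 0.434), TET5 in 6 of 16 alternatives (adjusted p 0.0102 to 1) and AT5G01080 in 5 of 16 alternatives (adjusted p 0.026 to 0.416).

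CHI, a chitinase, fell short of the test, with 412 at 6 h, 203 at 8 h, 100.3 at 10 h and 47.9 at 12 h, a difference of -2.06 log2 units (SE 0.38, adjusted p = 0.0551), in a course that ran down from 807 at 2 h. AT2G38870 behaved alike, from 298 at 2 h to 69.9 at 8 h, 31.1 at 10 h and under the floor at 12 h and after. AT2G40530 was at 39.1 and 37.5 and then under the floor at 10 h and 12 h, a difference of -1.68 that is a bound. AT2G41380 had 410.2 at 6 h, 460.2 at 8 h, 169 at 10 h and 68.2 at 12 h and was back at 235 at 19 h. CML43, a calmodulin-like protein, had 88.5 at 6 h, 67.9 at 8 h, 43.0 at 10 h and 31.1 at 12 h and stood above both later values at 14, 16 and 19 h.

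Smaller differences were seen in IAA18, a repressor of auxin response, with 170.4 at 6 h, 120.5 at 8 h, 81.8 at 10 h and 85.7 at 12 h, and in CDC27a, a subunit of the anaphase-promoting complex, with 85.8 at 6 h, 75.3 at 8 h, 57.0 at 10 h and 49.2 at 12 h. Their differences were -0.78 and -0.60 (adjusted p = 0.153 and 0.265). CYP71B6, a cytochrome P450, and APL3, a subunit of the first enzyme of starch synthesis, had differences of -0.63 and -0.55 (adjusted p = 0.284 and 0.602). LHW, a bHLH factor of vascular cells, and CW9 had -0.42 and -0.63.

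Other lists gave the levels of other processes and cell types over the same step. The 5 tested genes of photosynthesis, markers of green cells, had differences between 0.03 and 0.28, with 1 apart higher (PSBY; 19.6% over all), 0 called in limma and 1 at an unadjusted p under 0.05 (11.6% over all). Their median was 0.18, and -0.03 without the 6 h array, 0.32 without 10 h and 0.09 without 12 h. RCA stood at 257 at 6 h and 269 at 12 h. Markers of xylem cells matched no probe set by locus in the annotation used. Of 9 autophagy ATG8 genes, 5 were apart lower (19.9% over all), 0 apart higher (19.6% over all) and 0 called in limma (2 at an unadjusted p under 0.05, 11.6% over all). The median was -0.21, and -0.12 without the 8 h array. Without 6 h it was -0.33, with 8 apart lower, a setting in which fewer values need to lie apart. The 2 tested reference genes, AT4G34270 and AT2G28390, had differences of 0.07 and 0.04, and both overlapped. WRKY53 and CML23, of the touch and stress list, had mean differences of 0.81 and at least 0.82. WRKY53 had 24.4 at 6 h, 19.6 at 8 h, 26.9 at 10 h and 54.4 at 12 h. CML23, under the floor at 6 h, had overlapping groups, with 42.8 at 8 h and 33.8 at 12 h. Since these are bulk samples, more cells in mitosis and more transcript per cell cannot be told apart, and no count of mitotic cells was used here.

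**Figure D4:**
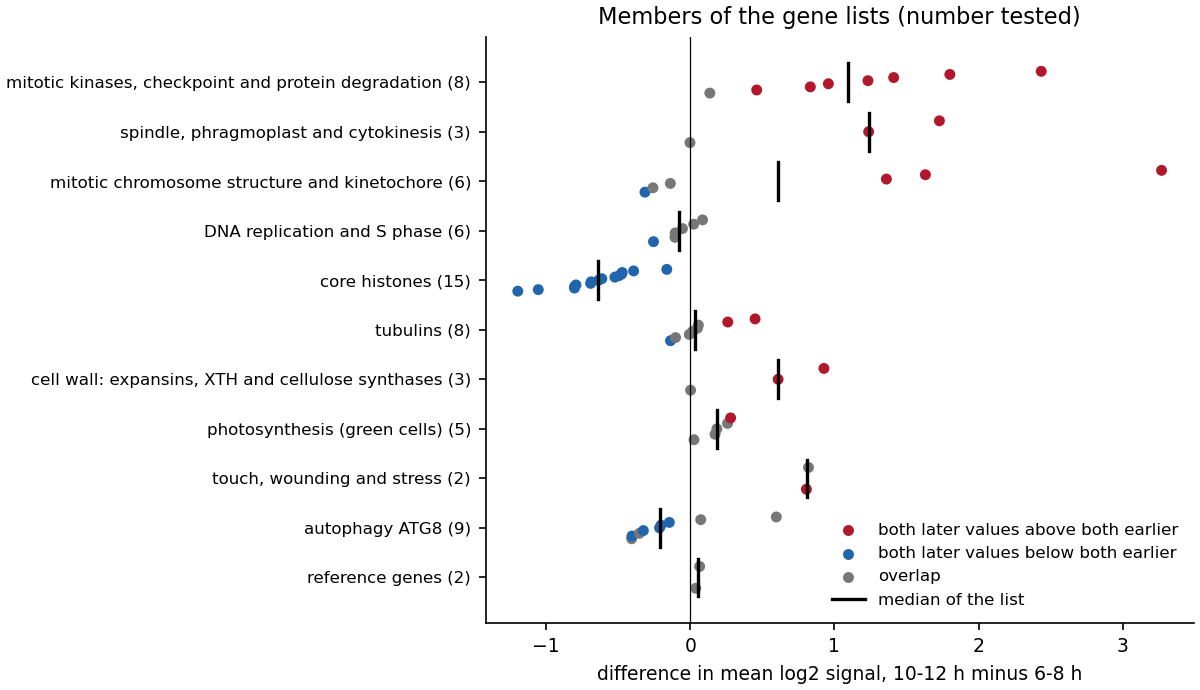
Difference in mean log2 signal between 10-12 h and 6-8 h for each tested member of 11 gene lists (points) and the list median (black lines), with red and blue for members whose groups did not overlap. Of the 17 tested members of the mitotic lists, 12 were apart higher, and the 15 core histone probe sets all lie to the left.

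The course outside the 4 samples showed how these probe sets stood before and after. Relative to the 6-8 h mean, the median of the 230 was -0.28 log2 units at 4 h, 1.53 at 10 h and at 12 h, 1.38 at 14 h, 1.19 at 16 h and 0.95 at 19 h. These probe sets were chosen by their values at 6, 8, 10 and 12 h, so counts set against those values follow in part from the choice and are given as a description, with no comparison. At 14, 16 and 19 h, 120 of the 230 lay below both later values at every time, and 13 lay above both at every time. At 19 h 163 of 230 were above both earlier values. The 14 h value was above the 16 h value, and that above the 19 h value, in 137 of the 230.

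The 8 h value was above the 6 h value in 196 of the 230 and below it in 66 of the 85 set apart lower. Over all 10 times, 84 of the 230 were highest at 10 h, 62 at 12 h, 27 at 2 h and 18 at 0 h. Some courses, such as those of WRKY22 and GTR2, had 2 h values well above those at 10-12 h. Before 6 h, 158 of the 230 were lower at 0, 2 and 4 h than at both later times.

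The 85 set apart lower had a median of -1.02 at 10 h, -1.45 at 12 h, -1.13 at 14 h, -0.99 at 16 h and -0.86 at 19 h relative to the 6-8 h mean. At 14, 16 and 19 h, 20 of 85 lay above both later values at every time, and 9 lay below both. At 19 h 70 of 85 were below both earlier values. At 12 h the signal was below that at 10 h in 59 of the 85.

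**Figure D5:**
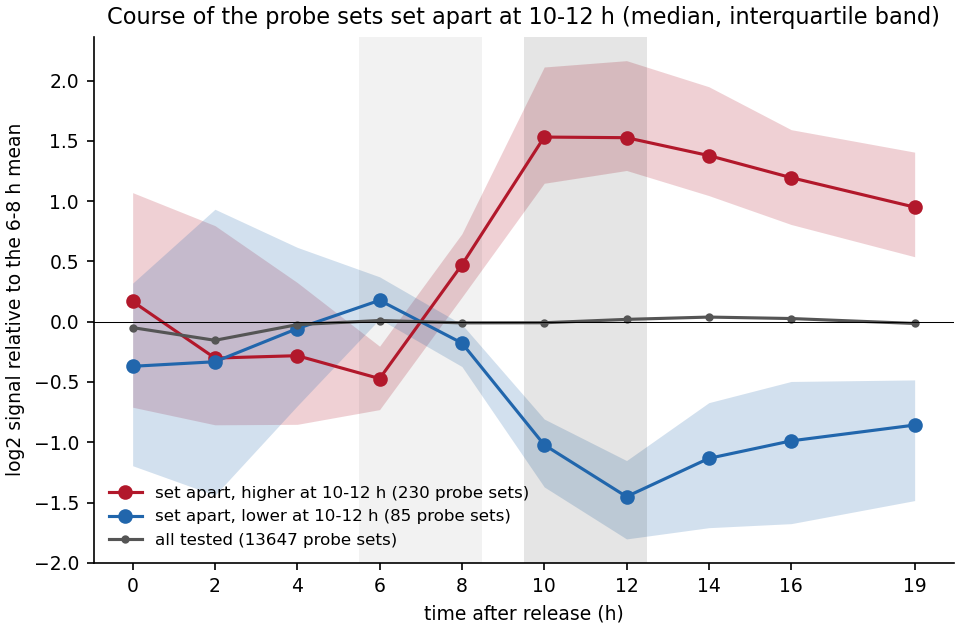
Median log2 signal relative to the 6-8 h mean, with the interquartile range as a band, against time after release for 230 probe sets set apart higher, 85 set apart lower and all 13647 tested. The median of the first is 1.53 at 10 h and 0.95 at 19 h, and that of the second is -1.45 at 12 h and -0.86 at 19 h.

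The limit of 1 log2 unit fell within a continuous range. Just inside it among genes apart higher were AT3G45090 and AT5G46230, with differences of 1.00 and 1.01, and just outside it were AT5G42880 and AT3G57070, with 0.99 and 0.99. Just inside it among genes apart lower were AT4G17900 and AT2G15880, with -1.01 and -1.02, and just outside it were AT1G01670 and AT1G21000, with -0.99 and -0.98. At least 1 earlier value was at the floor in 66 of the 230, so that their differences are lower bounds, and at least 1 later value in 16 of the 85.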

How the data were processed

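RNA of 10 samples was measured on 1 Arabidopsis ATH1 array each, and the number of arrays limits the precision. The deposited values are MAS5 signals, a linear intensity for each probe set, as the submitters' processing notes state, and the version of MAS5 is not given in the sources used here. The 2% trimmed mean was 99.3 to 99.4 on every deposited array, so the authors had scaled the intensity values. Of 22810 probe sets, 64 controls were left out. Genes came from the platform annotation, with names updated through a RefSeq gene table (TAIR10.1, names only): 13513 probe sets named 1 gene, of which 13436 matched, 503 several and 8730 none listed.

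Signals under 12 were set to 12 and log2 was taken. With R 4.3.3 and limma 3.58.1, 6 arrays in 3 pairs of neighbouring times were fitted with 1 mean per pair, moderated by eBayes along mean signal, and adjusted by Benjamini-Hochberg over 13647 probe sets. On simulated data for this comparison (13647 probe sets, 200 changed), 31% of changes of 1 log2 unit, 83% of 2 and 93% of 3 were recovered, with 2, 11 and 3 false calls. Alternatives changed the floor, scaling, filter, arrays and moderation. Genes named were the 15 with a symbol and 8 with a locus code with the widest gap between the groups in each direction, up to 15 called in limma, and tested list members. The tetraspanin and plastid families and probe sets of several genes were picked once values were known. The members and lists were chosen with earlier results of these data known. Promoter motifs were not analysed here.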

Additional observations from a re-analysis of the deposited data

How the results depend on the processing

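No paired analysis was possible because each time had 1 array, all labelled as replicate 1. The limma calls, 95 higher and 23 lower, were 22 and 1 with a floor of 30, 5 and 4 without the filter, 63 and 20 with the 60th percentile filter, 51 and 6 with the 4 arrays only, and 22 and 0 with 10 arrays in 4 windows. They were 67 and 11 with quantile normalization and 70 and 14 with median centring. Without a mean trend, limma called 0 and 0 (1418 probe sets at an unadjusted p under 0.05). With 10 arrays in 4 windows 682 were at an unadjusted p under 0.05. Leaving out 1 array gave 3 to 461 higher and 0 to 165 lower. The counts set apart, 230 and 85, were 173 and 50 with a floor of 30, 176 and 45 with a pseudocount of 12, 306 and 147 without the filter, 109 and 39 with the 60th percentile filter, and 209 to 462 and 64 to 193 with 1 array left out. The causes were not tested, except that the filters change how many probe sets are tested.

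Of 121 genes and probe sets named or listed, 34 were called, and none changed direction with a call. All 34 calls were lost when the filter or the mean trend was dropped, 33 without the 12 h array and 24 with a floor of 30 or 10 arrays in 4 windows, and 21 were gained without the 8 h array. Low signals limit what can be seen: 66 of the 230 rest on an earlier value at the floor.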

Other observations

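Plastid-encoded transcripts, a family chosen after its values were seen, leaned slightly downwards at 10-12 h. Of 68 tested probe sets of the plastid genome, 25 were apart lower (19.9% of all tested probe sets) and 7 apart higher (19.6%). Their median difference was -0.09 log2 units. In limma 0 were called (0.865% over all), and 10 were at an unadjusted p under 0.05 (11.6% over all). The largest was rpl32, a ribosomal protein, with 418 at 6 h, 477 at 8 h, 302 at 10 h and 282 at 12 h, a difference of -0.61 log2 units (SE 0.11, adjusted p = 0.0551). cemA had 114 at 6 h, 115 at 8 h, 74.0 at 10 h and 87.2 at 12 h, and psbZ, of photosystem II, had 179 at 6 h, 173 at 8 h, 126 at 10 h and 134 at 12 h. At 14, 16 and 19 h, 20 of the 68 were above both later values at every time (12.9% over all) and 0 were below both (11.9% over all). The family was picked with its 10 h and 12 h values known. These counts therefore follow in part from that choice and are a description only. The median was -0.06 to -0.14 over the alternatives. With 1 of the 4 arrays left out, where fewer values need to lie apart, 10 to 19 were apart higher and 31 to 37 apart lower.

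Tetraspanins, membrane proteins that organise other proteins into patches, were on both sides. Of 8 tested, 5 were apart higher (19.6% over all) and 1 apart lower (19.9% over all), with a median of 0.39, which was 0.13 with a floor of 30. TET3 stood at 51.1 at 6 h, 67.3 at 8 h, 102 at 10 h and 152 at 12 h (1.08 log2 units, adjusted p = 0.0852), and TET5 at 135 at 6 h, 108 at 8 h, 53.2 at 10 h and 44.5 at 12 h (-1.31, limma adjusted p = 0.0232). A probe set shared by AT5G36800 and AT5G36710 was among those with the largest rises, with 30.4 at 6 h, 109 at 8 h, 829.6 at 10 h and 862 at 12 h, a difference of 3.88 log2 units (SE 0.47, adjusted p = 0.0116). A probe set shared by AT1G66700 and AT1G66690 had the largest drop in value of all tested, with 437 at 6 h, 97.7 at 8 h, 22.9 at 10 h and 30.5 at 12 h, a difference of -2.97 log2 units (SE 0.57, adjusted p = 0.061).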
